A study of Mus musculus with 2 samples.

Results

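The miRNA genes Mir23b and Mir27b on chromosome 13 and Mir23a, Mir27a and Mir24-2 on chromosome 8 were measured in the limb of mouse embryos. They belong to a pair of paralogous clusters, each with a miR-23, a miR-27 and a miR-24 hairpin in the same order. The members were chosen by gene symbol, and the 5 were found among the 1973 miRNA genes counted. MicroRNA-seq was made from total RNA of whole limbs at embryonic day 15.5 from healthy mice of strain B6NCrl, with fragments below 30 nt kept. The 1 group had 2 replicates labelled as biological. The limbs of 78 embryos were pooled for replicate 1 and those of 62 for replicate 2, with males and females in each. There was no second tissue, stage or treatment, so levels were described and the pools were set against each other.

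MicroRNAs are short RNAs that are cut from hairpins and pair with messenger RNAs through their seed, bases 2 to 8, which represses those messengers. Hairpins of a cluster are usually made from 1 primary transcript, so later steps such as cutting and decay can set their mature levels apart. The miR-23 and miR-27 families are known from endothelial cells, where they act on the sprouting of vessels. In mouse embryos miR-27b represses Pax3 in muscle progenitors, and miR-27 represses the adipocyte regulator Pparg. In osteoblasts the chromosome 8 cluster is repressed by Runx2. In human cells miR-24 is known as a brake on the cell cycle.

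The mature sequences below show how near the paralogs are to each other, which bears on what could be counted for each. They were taken from RefSeq on GRCm38.p6, where a hairpin was listed for 5 of the 5 members, and capitals mark the seed. No miR-23b-3p was listed for Mir23b, so it is only named here, as of the same family as miR-23a-3p.
miR-23b-5p: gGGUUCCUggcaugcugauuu
miR-23a-5p: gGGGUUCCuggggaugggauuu
miR-23a-3p: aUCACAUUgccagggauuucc
miR-27b-3p: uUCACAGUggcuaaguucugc
miR-27a-3p: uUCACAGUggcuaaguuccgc
miR-24-3p (both Mir24-1 and Mir24-2): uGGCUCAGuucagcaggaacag
miR-24-1-5p: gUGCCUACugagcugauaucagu
miR-24-2-5p: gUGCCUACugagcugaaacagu

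Between miR-27b-3p and miR-27a-3p the seed was the same and 1 of 21 bases differed, U19C (miR-27b base first, counted from the 5′ end). Thus the first 18 bases of miR-27a-3p also lay in the Mir27b hairpin, and a run from its 5′ end had to reach base 19 to be absent from every other listed hairpin. The same numbers held for miR-23a-3p against the Mir23b hairpin. The 5′ arms of the miR-24 hairpins, 23 nt in miR-24-1 and 22 nt in miR-24-2, were compared from the 5′ end without gaps. They differed at 5 of 22 positions (U17A, U19C, C20A, A21G and G22U, with the miR-24-1 base first). Both arms end in cagu, so the differences from U19C on come from a shift by the unequal length and are not separate substitutions. From the 5′ end, 17 bases were needed to tell these arms apart. MiR-24-3p, in contrast, lay whole in both hairpins. The seed of miR-24-3p was also that of the listed miR-5124b, miR-6369, miR-6410 and miR-6413, whose genes had 0 counts in both libraries, which allows up to 0.704 CPM in replicate 1 and 0.582 CPM in replicate 2.

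The miR-24 hairpins carried the longest shared run, 28 bases, against 20 for Mir27b with Mir27a and 20 for Mir23b with Mir23a. The hairpins are shown with the shared run of each pair in capitals.
Mir27b (plus strand): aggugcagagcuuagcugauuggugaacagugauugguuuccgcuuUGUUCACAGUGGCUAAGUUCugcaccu
Mir27a (plus strand): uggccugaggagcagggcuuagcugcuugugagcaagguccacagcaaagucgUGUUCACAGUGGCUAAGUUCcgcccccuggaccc
Mir24-1 (plus strand): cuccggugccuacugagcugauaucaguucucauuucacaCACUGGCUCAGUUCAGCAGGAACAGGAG
Mir24-2 (plus strand): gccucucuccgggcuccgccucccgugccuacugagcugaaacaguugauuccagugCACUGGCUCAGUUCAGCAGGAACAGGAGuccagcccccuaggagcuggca
The count tables total reads with several alignments on a line of their own and give them to no gene. A miR-24-3p read that lies within the shared run is therefore in neither miR-24 count. Such reads made up 29.4% of all reads of replicate 1 and 29.7% of replicate 2, over all miRNAs and other loci together.

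**Figure D1:**
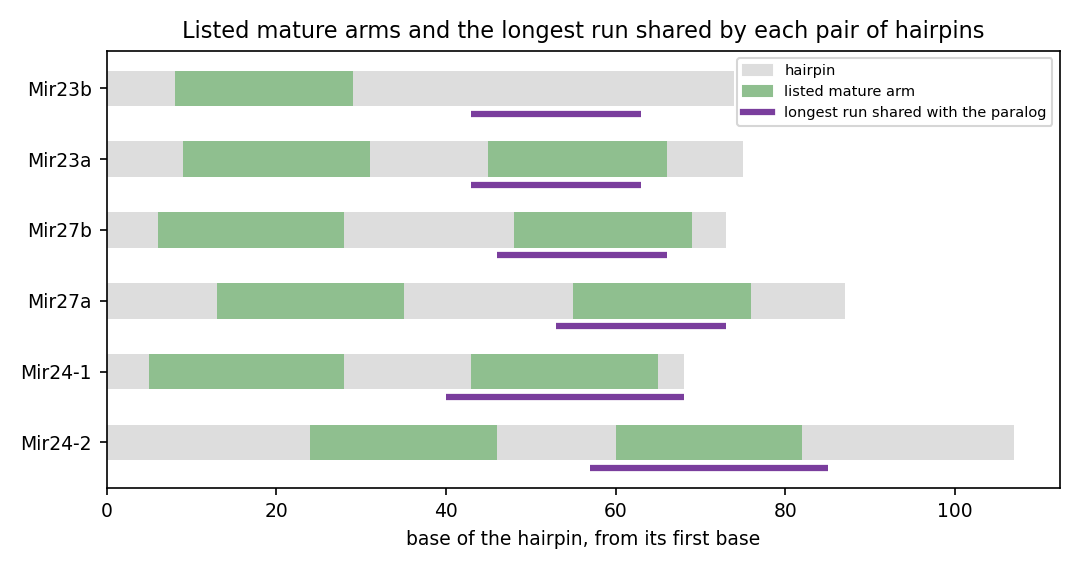
Hairpins of the paralogous pairs drawn from their first base, in bases, with the mature arms listed in RefSeq in green and the longest run shared by each pair as a purple line. The shared run is 28 bases long in the miR-24 pair, where it spans the whole 3′ arm, and 20 bases in each of the other pairs.

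On mm10 (GRCm38) all of these hairpins lie on the plus strand. Mir23b (ENSMUSG00000065599.1, chromosome 13, 63300484 to 63300557) lies in an intron of the aminopeptidase gene 2010111I01Rik. Mir27b (ENSMUSG00000065475.1, chromosome 13, 63300712 to 63300784) overlaps an exon of an annotated transcript of the same gene. The DNA repair gene Fancc runs opposite them on the minus strand, with both in its introns. Mir23a (ENSMUSG00000065611.1, chromosome 8, 84208518 to 84208592) and Mir27a (ENSMUSG00000065444.1, chromosome 8, 84208672 to 84208758) overlap no other annotated gene. Mir24-2 (ENSMUSG00000065541.1, chromosome 8, 84208815 to 84208921) meets the first exon bases of the lincRNA Gm26532 and lies opposite Mir3074-2. The chromosome 13 cluster, counted to the end of Mir24-1, spans 792 bases, and the chromosome 8 cluster 404 bases. Mir27b follows Mir23b after 154 bases, and Mir27a follows Mir23a after 79.

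**Figure D2:**
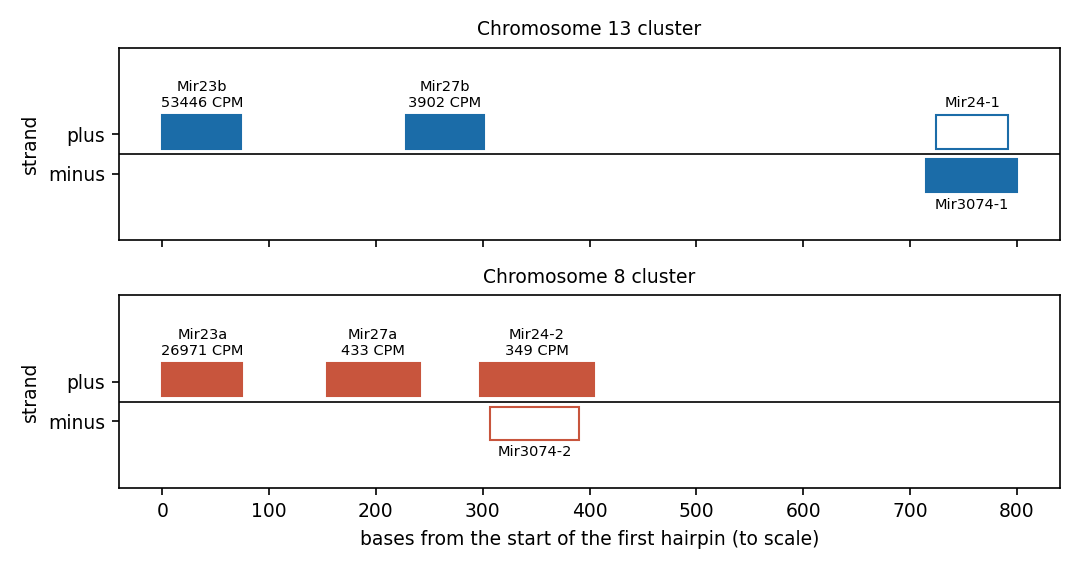
Positions of the hairpins in bases from the start of the first hairpin of each cluster, to scale, with mean CPM over 2 replicates above the members. Filled boxes were counted as genes of their own and open boxes were not; the chromosome 13 cluster is the longer one, with Mir24-1 and Mir3074-1 on opposite strands.

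Of all sense counts, the 5 members together held 8.36% in replicate 1 (95% interval by Wilson's method 8.33 to 8.38) and 8.67% in replicate 2 (8.64 to 8.69). Nearly all of this came from the miR-23 hairpins. In replicate 1 Mir23b held 61.6% of the members' counts and Mir23a 33.0%, and in replicate 2 they held 63.9% and 30.5%. Mir27b held 4.45% and 4.72% in replicates 1 and 2. Mir27a and Mir24-2 each held under 1% of the members' counts in both. Counts are given per 1000000 sense counts of miRNA genes (CPM), and the libraries had 4263630 and 5151214 such counts. In a whole limb, fewer cells of a type and less RNA per cell cannot be told apart.

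Mir23b, the source of miR-23b, had 219553 counts in replicate 1 and 285363 in replicate 2. On the CPM scale these were 51494 and 55397, with a mean of 53446 ± 2760 (SD, n = 2). It was at place 4 of the miRNA genes by mean CPM. Places here and below leave out reads with several alignments, so genes with an arm identical in another gene may stand too low. Its range overlapped that of Mir335 directly above it (56127 ± 3514 CPM, SD, n = 2) and lay above that of Mir99a directly below (49851 ± 355 CPM).

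Mir27b, the source of miR-27b, had 15851 and 21053 counts in replicates 1 and 2. Its level was 3718 and 4087 CPM, with a mean of 3902 ± 261 CPM (SD, n = 2), at place 53 by mean CPM. Its range overlapped that of Mir106b directly above (3978 ± 470 CPM) and not that of Mir455 directly below (3424 ± 348 CPM). Both members of the chromosome 13 cluster were thus among the more abundant genes by these counts, but far apart in level.

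Mir23a had 117467 and 135943 counts in replicates 1 and 2. These were 27551 and 26390 CPM, with a mean of 26971 ± 821 CPM (SD, n = 2) and place 10 in both libraries. The genes next to it, Mir196b (40763 ± 6885 CPM) above and Mir26b (23799 ± 1491 CPM) below, had ranges that did not overlap its own.

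Mir27a had 1912 and 2148 counts, or 448 and 417 CPM, with a mean of 433 ± 22.2 CPM (SD, n = 2). Mir24-2 had 1447 and 1850 counts, or 339 and 359 CPM, with a mean of 349 ± 14.0 CPM (SD, n = 2). By counts these were the low members, at places 124 and 133 by mean CPM, and their own ranges did not overlap. Each overlapped the range of both of its neighbours in the order, Mir223 and Mir500 for Mir27a and Mir374b and Mir339 for Mir24-2. Reads of miR-24-3p within the run shared with Mir24-1 are not in the count of Mir24-2, so its place is not that of mature miR-24.

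**Figure D3:**
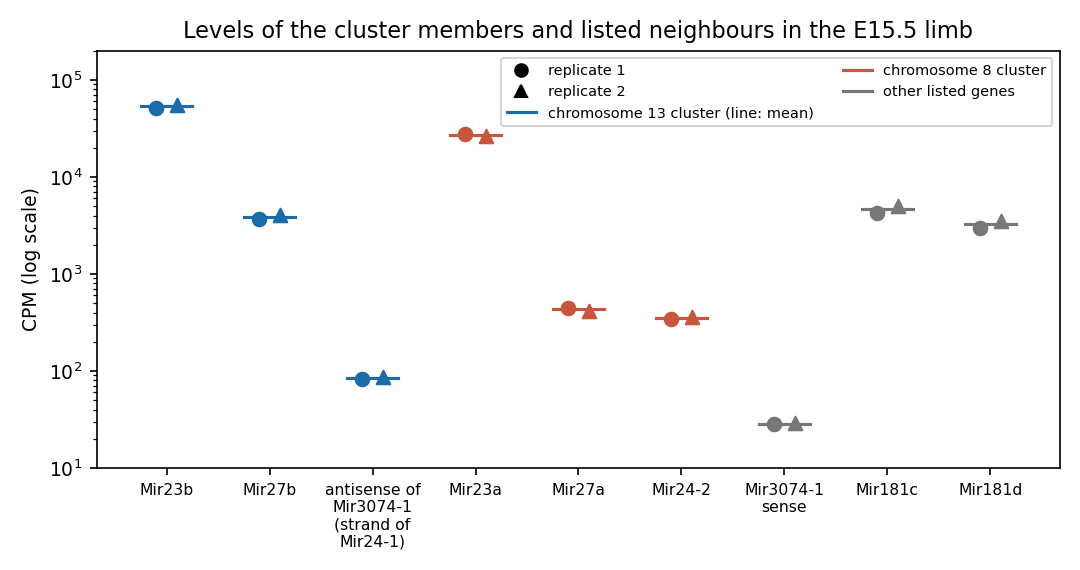
CPM on a log axis for the members and the listed neighbours in replicate 1 (circles) and replicate 2 (triangles), with a line at the mean of 2 replicates. Mir23b and Mir23a stand at 53446 and 26971 CPM, Mir27b at 3902, and Mir27a and Mir24-2 below 500, and the replicates lie close to each other at every gene.

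The chromosome 13 members outweighed the chromosome 8 members in both pools. Their summed counts were 1.95 times those of Mir23a, Mir27a and Mir24-2 in replicate 1 (exact 95% interval 1.93 to 1.96) and 2.19 times in replicate 2 (2.18 to 2.20). Mir23b over Mir23a was 1.98 ± 0.163 (SD, n = 2) by counts and 2.01 per base of hairpin. Mir27b over Mir27a was larger, 9.05 ± 1.07 by counts (SD, n = 2) and 10.8 per base of hairpin. In both libraries the lower bound for the miR-27 pair (7.91 and 9.38) lay above the upper bound for the miR-23 pair (1.88 and 2.11), so the chromosome 13 copy led by more in miR-27 than in miR-23, beyond counting error. The reads common to both copies are in none of these values. The listed miR-27 3′ arms are 21 nt long, so for miR-27 a ratio by counts is near one per mature base. MiR-23a-3p is also 21 nt long, but no miR-23b-3p was listed to set against it.

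Within a cluster the counts of the miR-23 hairpin stood far above those of its partners. Reads with several alignments are in none of these counts, and how many of them came from miR-23 or miR-27 is not known. Mir23b over Mir27b was 13.9 in replicate 1 and 13.6 in replicate 2, with a mean of 13.7 ± 0.210 by counts (SD, n = 2) and 13.5 per base of hairpin. Mir23a over Mir27a was 61.4 in replicate 1 and 63.3 in replicate 2, with a mean of 62.4 ± 1.31 by counts (SD, n = 2) and 72.3 per base of hairpin. The exact intervals of replicates 1 and 2 overlapped for both of these ratios, and did not overlap for Mir23b over Mir23a or Mir27b over Mir27a. Mir23a over Mir24-2 was 81.2 in replicate 1 and 73.5 in replicate 2, and 110.3 per base of hairpin as the mean, with miR-24-3p reads common to both copies left out of Mir24-2. The hairpins of Mir23a, Mir27a and Mir24-2 are 75, 87 and 107 bases long, but their listed arms are all 21 or 22 nt. Fragments below 30 nt were kept, so the per-base values follow the annotated hairpin length and are not corrected levels. Among 40 genomic clusters with at least 2 detected genes, neighbours at most 10 kb apart, the chromosome 13 cluster was at place 3 by summed CPM and the chromosome 8 cluster at place 5. Highest over lowest counted gene was 13.7-fold on chromosome 13 and 77.2-fold on chromosome 8. These values do not cover the same hairpins, since the first leaves out Mir24-1 and the second includes Mir24-2. Against the antisense counts at Mir3074-1, on the strand of Mir24-1, Mir23b had 618 times as many counts in replicate 1 and 644 times in replicate 2. By these counts, with a miR-24 hairpin in both, the spread was wider on chromosome 13. Reads that match both miR-24 hairpins are in neither miR-24 count, so the spread of the mature levels cannot be told from it.

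**Figure D4:**
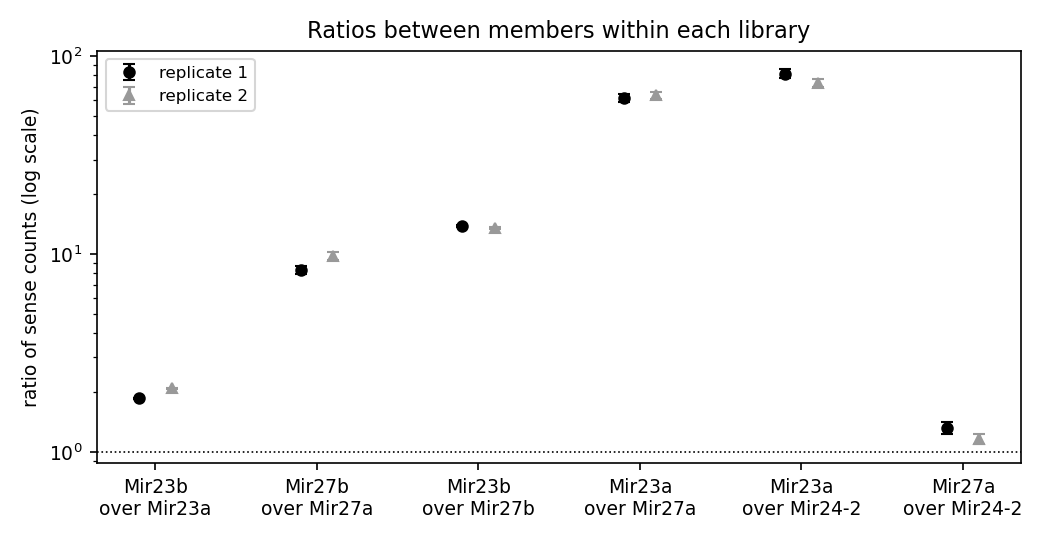
Ratios of sense counts between members within each library on a log axis, with exact 95% binomial intervals that cover counting error only. Mir23b over Mir27b and Mir23a over Mir27a are nearly the same in replicates 1 and 2, while Mir23b over Mir23a and Mir27b over Mir27a are higher in replicate 2.

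The miR-24 hairpin of the chromosome 13 cluster, Mir24-1, lies from 63301208 to 63301275 and was not counted as a gene of its own. Mir3074-1, which lies opposite it from 63301199 to 63301283, was counted, and its antisense counts are reads on the strand of Mir24-1. There were 355 of them in replicate 1 and 443 in replicate 2, or 83.3 and 86.0 CPM by the sense total. The sense counts of Mir3074-1 were 120 and 151, or 28.7 ± 0.826 CPM (SD, n = 2). On chromosome 8, Mir24-2 had 4.08 times as many sense counts as there were antisense counts at Mir3074-1 in replicate 1 (exact 95% interval 3.63 to 4.59) and 4.18 times in replicate 2 (3.76 to 4.64). By these counts alone the miR-24 order was the reverse of that of miR-23 and miR-27, with more counts on chromosome 8. Reads that match both copies are in neither value, and the tables do not separate 5′ from 3′ arms. Antisense counts of the 5 members were 0 or 1 in each library.

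Of the genes counted, 916 had a mature arm listed in RefSeq, and 87 of these, Mir24-2 included, had an arm identical to that of another gene. Of the 87, 43 were detected (at least 10 counts in both replicates), with a median of 56.3 CPM and a highest value of 2791 CPM. Of the 829 others, 268 were detected, with a median of 192 CPM and a highest value of 72531 CPM. Mir24-2 was place 11 of the 43. Mir128-1 and Mir128-2, whose identical miR-128-3p begins with the 7 letters of the miR-27 seed (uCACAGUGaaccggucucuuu), stood at 190 ± 54.3 and 121 ± 36.7 CPM (SD, n = 2).

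Between the pools the members' log2 ratios lay between -0.14 and 0.10. An exact two-sided binomial test given the library totals, adjusted by Benjamini-Hochberg over the 340 detected genes, called 50.9% of them (25.6% higher in replicate 1 and 25.3% higher in replicate 2). It called 4 of the 5 members. With 5 genes, that share was not read as a property of the members. The test sets 2 libraries against counting noise and says nothing of conditions. Mir23b had a log2 ratio (replicate 1 over replicate 2) of -0.11 (adjusted p = 3.70e-145, exact binomial test), and Mir27b of -0.14 (adjusted p = 8.90e-19, exact binomial test). Mir23a had 0.06 (adjusted p = 2.05e-26, exact binomial test) and Mir27a 0.10 (adjusted p = 0.0422, exact binomial test). Mir24-2 had -0.08, and its adjusted p of 0.172 in the exact binomial test missed the threshold of 0.05. Thus both chromosome 13 members were lower in replicate 1, and Mir23a and Mir27a were higher there.

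The members' differences were not unusual in size among well-counted genes. Of the 247 genes with at least 100 counts in both libraries, 144 had a larger log2 ratio in either direction than Mir27b, the member that differed most, and 204 had a larger one than Mir23a, the member that differed least. The 3 of these genes whose log2 ratio lay nearest to that of the summed members (-0.05) were Mir151 (-0.05), Mir296 (-0.06) and Mir3074-1 (-0.06). That likeness rests on 2 libraries and 1 ratio. The call of Mir27a was lost with all reads as the total (adjusted p = 0.178, exact binomial test), with no count minimum (0.0810) and with counts irrespective of strand (0.0599), and over all alternatives its adjusted p ran from 0.0127 to 0.178.

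**Figure D5:**
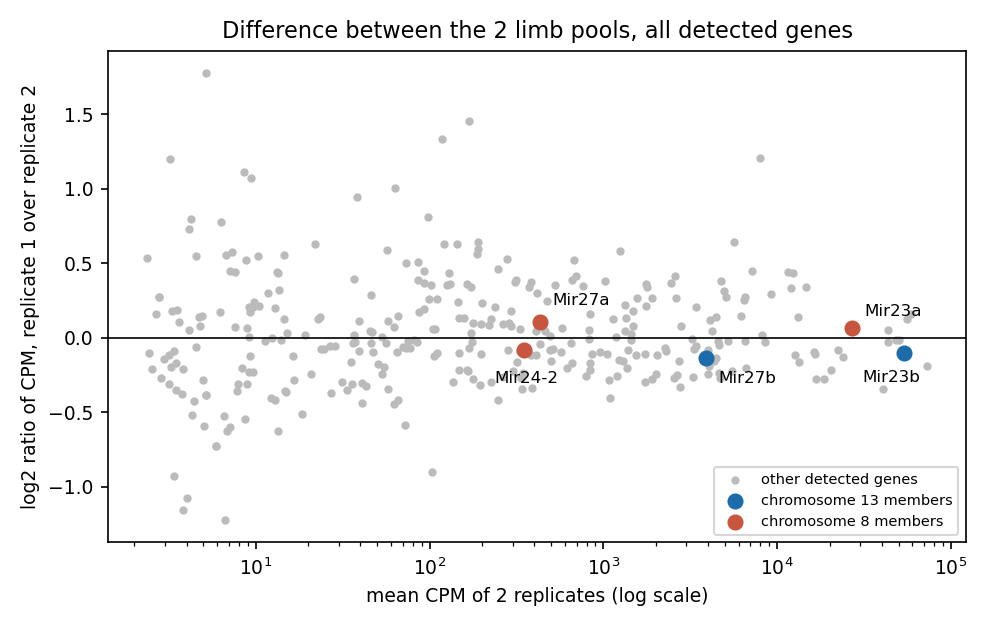
Log2 ratio of CPM, replicate 1 over replicate 2, against mean CPM on a log axis for the 340 detected genes, with the members coloured by cluster. The members lie between -0.14 and 0.10, near the zero line, with both chromosome 13 members below it and Mir23a and Mir27a above it.

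Mir181c and Mir181d, miRNAs of an intron of the germ cell gene Nanos3, lie on the other strand of chromosome 8, 29556 and 29730 bases before Mir23a. They stood at 4623 ± 540 and 3257 ± 422 CPM (SD, n = 2). Both were lower in replicate 1, with log2 ratios of -0.24 (adjusted p = 6.57e-65, exact binomial test) and -0.27 (adjusted p = 2.26e-56, exact binomial test), the direction opposite to that of Mir23a and Mir27a.

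Among miRNA genes of the tissues in which these clusters are known, muscle differed most between the pools. Of 10 listed muscle genes 6 were detected, and 6 were higher in replicate 1 past the threshold, with a median log2 ratio of 1.27 against -0.02 over all detected genes. Of all detected genes, 25.6% were higher in replicate 1 past the threshold. The muscle list took 1.16% of the counts of replicate 1 and 0.501% of replicate 2. Its genes Mir1a-1, Mir1a-2, Mir133a-1 and Mir133a-2 were not among the detected genes, and reads with several alignments are in none of these counts. Mir206, a miRNA of skeletal muscle, had 11050 CPM in replicate 1 and 4787 CPM in replicate 2, and Mir499 had 246 and 89.7 CPM. The part of muscle content in the members' differences was not tested.

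Of 20 listed genes of endothelium and angiogenesis 18 were detected, of which 9 were higher in replicate 2 past the threshold and 9 did not pass, with a median log2 ratio of -0.11. Over all detected genes the test called 50.9%, with 25.3% higher in replicate 2 and 25.6% higher in replicate 1. The endothelial Mir126a had 21698 and 22975 CPM in replicates 1 and 2, and Mir130a had 16813 and 20411 CPM. Of 16 skeletal and mesenchymal genes 13 were detected, with 4 higher in replicate 1 and 6 higher in replicate 2 past the threshold and a median of -0.16. Mir140, a miRNA of chondrocytes, had 43941 and 42385 CPM, and Mir214, of the mesenchyme, 18755 and 21793 CPM. Of 7 epidermal genes 7 were higher in replicate 2 past the threshold, with a median of -0.11. They were led by Mir203 with 67775 and 77287 CPM and Mir205 with 15666 and 16746 CPM.

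These lists also bear on the limb label, since miRNAs of cartilage, skin and muscle were present in both pools. Of the erythroid pair neither passed, and Mir451a had 339 and 325 CPM and Mir144 84.2 and 85.8 CPM. The liver genes, led by Mir122 (57.5 and 86.2 CPM) and Mir192 (50.4 and 64.1 CPM), took 0.0147% and 0.0192% of the counts. Of the 3 detected, 2 were higher in replicate 2 past the threshold, against 25.3% of all detected genes. Of 8 listed neuronal genes 3 were matched by symbol and took 0.00732% and 0.00759%, with Mir137 at 71.1 and 74.5 CPM. That share covers these 3 genes only and holds no reads with several alignments, so it does not give the level of neuronal miRNAs as a whole.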

How the data were processed

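MicroRNA-seq of 2 limb pools was analysed. The authors deposited raw counts of reads for each miRNA gene. Per the deposited README they rest on assembly mm10 and genome annotation M4. Aligner, counter and trimming: not given in the sources used here. The 3 count columns had no header and were taken from their values as counts irrespective of strand, sense and antisense counts, and the 4 summary lines entered no gene total. Gene identifiers were matched without their version to GENCODE M21 on GRCm38, for 1894 of 1973 genes. The libraries held 9187400 and 10851823 reads, of which 46.4% and 47.5% were sense counts of miRNA genes, and 623 and 630 genes had a count. Counts were divided by the sense total and multiplied by 1000000 (CPM). A count of 0 allows up to 3 counts. Shares carry Wilson and ratios exact Clopper-Pearson 95% intervals, which, like these floors, cover counting error only, since molecular identifiers were not named. Sequences came from RefSeq and shared runs were searched over 1005 listed hairpins. Libraries were compared with an exact conditional binomial test (scipy 1.17.1, Python 3.11.15). It was tried on simulated counts that carried counting noise only, so spread between pools was not covered. A quasi-likelihood test needs a second group and was not made. edgeR 4.0.16 gave TMM factors and DESeq2 1.42.0 size factors as alternatives, and RNAfold 2.7.2 the folding energies. Alternatives were other totals, strands, minimums and scalings, and leaving out each replicate. The members and lists were chosen with earlier results of these data known. Named genes are the members, listed copies and neighbours, genes with a shared arm or seed, the genes directly above and below each member by mean CPM, the 3 genes of at least 100 counts with the nearest log2 ratio, and up to 2 leading genes of each marker list.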

Additional observations from a re-analysis of the deposited data

Results flagged for a closer look

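Antisense counts lie outside the sense counts that the levels rest on. At Mir3074-1 they were 355 in replicate 1 and 443 in replicate 2, above the 3 counts that a count of 0 allows. The series has no control samples to set them against. They are on the strand of Mir24-1, which was not counted as a gene of its own, and which arm they come from cannot be told from the tables.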

How the results depend on the processing

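The summed share of the 5 members, 8.51% of the sense counts, was 3.995% of all reads of the tables and 5.22% with reads of several alignments added to the total. It was 8.23% with counts irrespective of strand, 9.18% without the most abundant gene, and 9.22% by counts per hairpin base. Without either replicate it was 8.36% to 8.67%. The ratio of the chromosome 13 to the chromosome 8 members, 2.07, was 2.11 per hairpin base, 2.10 without Mir24-2, and 2.07 with the antisense counts at Mir3074-1 added, a choice made after seeing the data. Without replicate 1 or 2 it was 2.19 or 1.95, the values of the single libraries, and counts irrespective of strand could not move it, as the members had at most 1 antisense count. The test called 173 genes, and 167 to 184 under the alternatives. The 5 members' log2 ratios kept their direction in all of these, and Mir24-2 passed the threshold with all reads as the total (adjusted p = 0.0454, exact binomial test; 0.0454 to 0.337 over its alternatives). No scaling moved the median log2 ratio of all genes by over 0.1. No paired analysis was possible because there was 1 group. Depth gives Mir23b and Mir23a narrow counting intervals, and the number of pools, 2, limits every comparison between them.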

Other observations

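The predicted folding energy of the RefSeq hairpins was -39.5 kcal/mol for Mir27b, -28.8 for Mir23b, -32.6 for Mir23a, -36.6 for Mir27a and -49.0 for Mir24-2. Per base it was lowest in Mir27b (-0.541 kcal/mol) and highest in Mir23b (-0.389), with Mir23a, Mir27a and Mir24-2 between -0.458 and -0.421. By folding energy per base Mir23b, the member with the most counts, was thus the least stable of the 5. The GC content of the hairpins was 48.6% in Mir23b and 47.9% in Mir27b, and 56.0% in Mir23a, 59.8% in Mir27a and 61.7% in Mir24-2, so the chromosome 13 hairpins were the poorer in G and C.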
